A study of Mus musculus with 10 samples.

Results

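The genes described here encode the aminoacyl-tRNA synthetases, the enzymes that load each transfer RNA (tRNA) with its amino acid. They were taken by exact symbol from a list of 37 names, and all 37 were found among the 23337 genes of the table. Of these, 19 encode cytosolic enzymes, 16 encode mitochondrial enzymes, and Gars and Kars each serve both compartments from 1 gene. Most mitochondrial enzymes carry a symbol ending in 2. Tarsl2 also does, but it encodes a second cytosolic threonyl-tRNA synthetase and was counted with the cytosolic genes. Heart muscle cells (cardiomyocytes) were compared between 5 GFP and 5 dnMKL1 libraries. All animals were wild-type mice given 5e+08 vector genomes per gram on postnatal day 1, and cells were collected on postnatal day 14 by collagenase perfusion and fluorescence-activated sorting. The AAV9 vector carried GFP alone, or dnMKL1 with GFP, under the cTNT promoter, that of the cardiac troponin T gene, active in heart muscle. dnMKL1 is a dominant-negative form of MKL1, a coactivator of serum response factor (SRF). The groups are called biological replicates in the labels, and nothing there says whether a library holds cells of 1 or of several hearts.

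A synthetase first activates its amino acid with ATP and then joins it to the matching tRNA, so that ribosomes receive the right building block. The cytosolic enzymes supply translation of nuclear genes, and several of them sit together in a multisynthetase complex. The mitochondrial enzymes are also encoded in the nucleus and are imported to charge the tRNAs of the mitochondrial genome, whose products are subunits of the respiratory chain. Many cytosolic synthetase genes are known targets of ATF4, the transcription factor of the integrated stress response, which is induced when uncharged tRNAs accumulate or mitochondria are disturbed.

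Promoter sequence is shown for the members that carry the core of an ATF4-type element, because genes of the ATF4 response are set beside the synthetases further on. RefSeq promoter windows on GRCm38.p6, from 250 bases before to 50 bases after a start site, were at hand for 27 members: 11 cytosolic, 2 dual and 14 mitochondrial. In 19 of the 27, the bases after the start matched a GENCODE transcript of the gene. A window therefore need not be the promoter used in these cells. The letters TGATGNAA, searched on both strands, were found in 5 of these 27 windows and in 3.97% of 32851 windows of the same length over all genes. The matches lay in the windows of 4 cytosolic genes and of the dual gene Gars, and in 0 of 14 mitochondrial windows. Each line gives the match in capitals with 16 bases on each side, 5′ to 3′ on the strand of the gene.

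Aars, chr8:111033714-111033753, plus strand: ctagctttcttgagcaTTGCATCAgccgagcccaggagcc
Aars, chr8:111033835-111033874, plus strand: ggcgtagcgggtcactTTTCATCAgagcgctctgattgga
Gars, chr6:55037955-55037994, plus strand: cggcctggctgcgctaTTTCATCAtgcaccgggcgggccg
Iars, chr13:49682121-49682160, plus strand: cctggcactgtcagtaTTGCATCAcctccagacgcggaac
Tars, chr15:11399650-11399689, minus strand: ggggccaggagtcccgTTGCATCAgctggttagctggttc
Yars, chr4:129189890-129189929, plus strand: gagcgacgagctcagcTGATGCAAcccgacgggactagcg

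Another set is shown for members that were lower in dnMKL1 libraries. The NRF1-type palindrome (GCGCA and GCGC with 1 base of any kind between them) was found in the windows of Mars2, Iars2, Kars, Farsb and Tars, 5 of 27, against 4.60% of all windows. Of these genes, Mars2, Iars2, Kars and Farsb were lower in dnMKL1 libraries and Tars was not called, while 18 of all 37 members were lower. The NRF1-type matches lay in 2 of 14 mitochondrial, 2 of 11 cytosolic and 1 of 2 dual windows. The YY1-type letters AAGATGGCG lay in the windows of Aars2, Yars2, Wars2 and Farsa, 4 of 27, against 1.40% of all windows. These were 3 of 14 mitochondrial and 1 of 11 cytosolic windows. Aars2 and Yars2 were lower in dnMKL1 libraries, and Wars2 and Farsa were not called. A match describes the letters only. Of the other motifs searched on both strands, CCGGAAGT (ETS-type) was in 2 of 27 windows, those of Rars2 and Farsa, and in 3.89% of all. The E-box CACGTG was in 5 of 27 (Farsb, Ears2, Aars, Iars and Tars) and in 7.15% of all, and at Tars it abuts an NRF1-type match. TGACGTCA, TCAAGGTCA and the CArG box, the element bound by SRF, were in 0 of 27 windows and in 1.79%, 0.423% and 1.63% of all. The lines below are limited to the NRF1-type and YY1-type matches of genes called lower, so those of Tars, Wars2 and Farsa are not printed. They are written like those above and hold fewer flanking bases where a window ends.

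Mars2, chr1:55237163-55237204, plus strand: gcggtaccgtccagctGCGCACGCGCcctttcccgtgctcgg
Iars2, chr1:185329368-185329409, minus strand: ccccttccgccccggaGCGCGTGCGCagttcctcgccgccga
Kars, chr8:112011378-112011419, minus strand: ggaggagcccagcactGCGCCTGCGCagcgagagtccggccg
Farsb, chr1:78488848-78488885, minus strand: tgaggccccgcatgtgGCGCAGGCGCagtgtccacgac
Aars2, chr17:45506835-45506875, plus strand: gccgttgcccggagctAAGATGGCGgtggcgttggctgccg
Yars2, chr16:16302965-16303005, plus strand: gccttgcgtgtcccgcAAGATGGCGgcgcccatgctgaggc

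The deposited table holds 1 comparison of the groups and no values per library, so levels are given as group means implied by the base mean (the mean normalized count over all libraries) and the fold change. Positive log2 fold changes are taken to mean higher expression in dnMKL1 libraries, since Mkl1, from which the vector's product derives, had 9.80 (SE 0.15) in the authors' deposited table. Base means summed to 12123066 normalized counts over all genes, and implied means to 13330302 for GFP and 10915829 for dnMKL1. A gene is called higher or lower at an adjusted p-value under 0.05 in the authors' deposited table, a Benjamini-Hochberg adjusted Wald test over 14056 genes. That rule called 34.1% of the genes tested, 16.6% higher and 17.4% lower. Sorted cells were checked with markers: 8 of 8 cardiomyocyte markers were in the table with base means from 4647 to 594986, the lowest being Nppa, while endothelial markers reached 876, fibroblast markers 2281 and macrophage markers 50.3. Mural markers reached 7726, the base mean of the smooth muscle actin gene Acta2, which is above that of Nppa. Per kilobase of the longest annotated transcript, the median base mean was 37706 normalized counts for the cardiomyocyte and 62.4 for the mural markers. Of the erythroid markers, Hba-a1 and Hba-a2 were listed at 0.

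Synthetase genes of mitochondria were lower in dnMKL1 cardiomyocytes, and most of those of the cytosol were not called. Of the 16 mitochondrial members, 13 were lower, 0 higher and 3 not called, with a median log2 fold change of -0.48. Cytosolic members numbered 4 lower, 1 higher and 14 not called out of 19, with a median of 0.016. Of the dual members, Kars was lower and Gars was not called. All 37 had an adjusted p-value, so none was lost to a filter on low values. In total 18 members were lower and 1 higher, beside the 17.4% and 16.6% given for all genes. Among the 8066 genes whose base means lie in the range of the members other than Lars2, 22.1% were lower and 19.1% higher, with a median log2 fold change of -0.013.

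**Figure D1:**
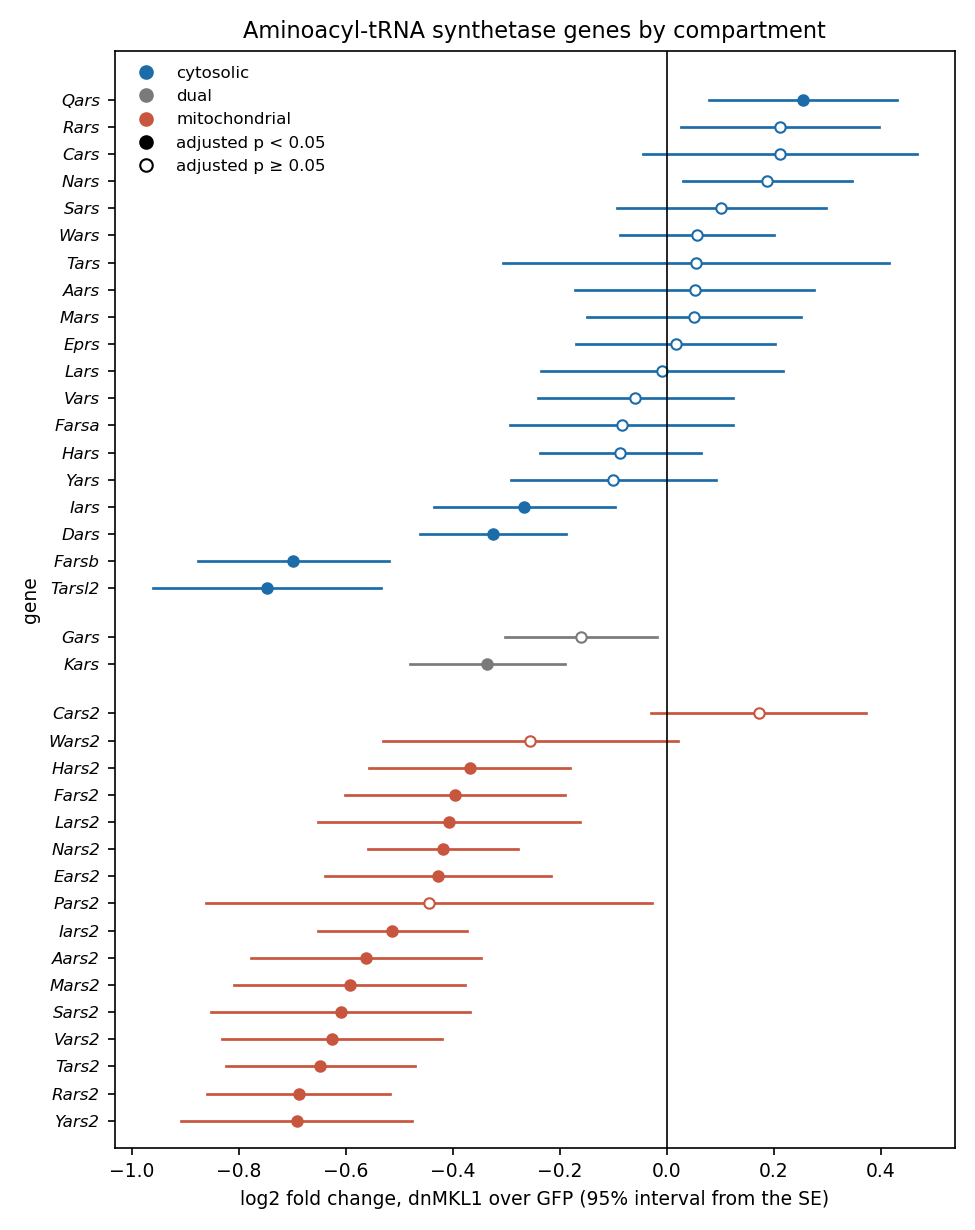
Log2 fold change (x axis, dnMKL1 over GFP) of each of the 37 synthetase genes (y axis), grouped by compartment; points are the deposited values, lines the 95% intervals computed from the deposited standard errors, and filled points have an adjusted p-value under 0.05. The mitochondrial genes lie left of 0 except Cars2 at 0.17, and of the cytosolic genes Dars, Iars, Farsb and Tarsl2 (lower) and Qars (higher, at 0.25) are filled.

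Among the mitochondrial enzymes the lowest value belonged to Yars2 (chr16:16302965-16309640, RefSeq, GRCm38.p6, as for the other gene positions given), the tyrosyl-tRNA synthetase. Its implied mean fell by 38.1%, from 608 normalized counts with GFP to 376 with dnMKL1. The authors' deposited table gave a log2 fold change of -0.69 (SE 0.11, adjusted Wald p = 6.1e-09). Rars2 (chr4:34614957-34660167), which charges arginine, went from an implied 587 to 364 normalized counts. For it the authors' deposited table gave -0.69 (SE 0.09, adjusted Wald p = 1.4e-13), the smallest adjusted p of the 37 genes. Rars2 thus fell by 37.9%, much as Yars2 did.

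Tars2, the threonyl enzyme, had implied means of 1001 normalized counts in GFP and 639 in dnMKL1 libraries, and the authors' deposited table gave -0.65 (SE 0.09, adjusted Wald p = 1.9e-11). Vars2, the valyl enzyme, stood at 509 and 330 normalized counts, with -0.63 (SE 0.11, adjusted Wald p = 4.3e-08) in the authors' deposited table. Sars2, which charges serine, had 322 and 211 normalized counts. For Sars2 the authors' deposited table gave -0.61 (SE 0.12, adjusted Wald p = 8.4e-06). Mars2 loads the methionine tRNA that also starts mitochondrial translation, and its implied means were 423 and 281 normalized counts. Its value in the authors' deposited table was -0.59 (SE 0.11, adjusted Wald p = 8.6e-07).

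Smaller falls were seen for 7 further mitochondrial genes. In the authors' deposited table the log2 fold changes were -0.56 (SE 0.11) for Aars2, the alanyl enzyme, and -0.51 (SE 0.07) for Iars2, the isoleucyl enzyme. Ears2 charges glutamate, Nars2 asparagine, Lars2 leucine, Fars2 phenylalanine and Hars2 histidine. The authors' deposited table gave -0.43 (SE 0.11) for Ears2, -0.42 (SE 0.07) for Nars2, -0.41 (SE 0.13) for Lars2, -0.40 (SE 0.10) for Fars2 and -0.37 (SE 0.10) for Hars2. Their adjusted p-values ranged from 1.8e-11 (Iars2) to 0.0050 (Lars2). Iars2 shares 24.2% of its exon bases with other genes in GENCODE M21, mostly with Rab3gap2 on the opposite strand. The library kit does not mark strand, and Rab3gap2 was higher, at 0.33 (SE 0.11, adjusted Wald p = 0.0083) in the authors' deposited table, so the reads of both genes cannot be fully told apart. Fars2 shares 10.7% of its exon bases, mostly with Nrn1 on the opposite strand, which was lower too, at -0.92 (SE 0.28, adjusted Wald p = 0.0039) in the authors' deposited table.

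The mitochondrial genes that were not called differ among themselves. Pars2, the prolyl enzyme, had the lowest level of all members per kilobase of the longest annotated transcript, 30.3 normalized counts, with a base mean of 92.2. It had -0.44 (SE 0.21, adjusted Wald p = 0.093) in the authors' deposited table, with a 95% interval from -0.86 to -0.029. Wars2, the tryptophanyl enzyme, had a base mean of 152 and -0.26 (SE 0.14, adjusted Wald p = 0.16) in the authors' deposited table. Its interval of -0.53 to 0.020 includes the median of the mitochondrial members, so a fall of that size is not excluded for Wars2. Cars2, which charges cysteine, was the exception in sign. It had implied means of 633 normalized counts in GFP and 712 in dnMKL1 libraries and 0.17 (SE 0.10, adjusted Wald p = 0.20) in the authors' deposited table. The interval for Cars2, from -0.030 to 0.37, does not reach the range of -0.69 to -0.37 spanned by the called mitochondrial members.

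In the cytosolic set, Qars (chr9:108508005-108515941) was the 1 gene called higher. It encodes the glutaminyl-tRNA synthetase, a member of the multisynthetase complex. Its implied means were 763 normalized counts with GFP and 910.3 with dnMKL1. The authors' deposited table gave 0.25 (SE 0.09, adjusted Wald p = 0.016), a rise of 19.3%. Mammalian mitochondria are known to make glutaminyl-tRNA by another route: Ears2 first loads glutamate on the glutamine tRNA, and an amidotransferase with the subunits Qrsl1 and Gatc then converts it. In the authors' deposited table Qrsl1 had -0.74 (SE 0.11, adjusted Wald p = 8.0e-11) and Gatc -0.35 (SE 0.09, adjusted Wald p = 2.2e-04), both lower like Ears2.

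Tarsl2 (chr7:65644898-65692093) had the largest change of the 37 genes. Its implied means were 1000.5 normalized counts in GFP and 596 in dnMKL1 libraries, and the authors' deposited table gave -0.75 (SE 0.11, adjusted Wald p = 2.0e-10). Tarsl2 thus fell by 40.4%. Tars, the other cytosolic threonyl enzyme, stood at 858 and 891 normalized counts, with 0.053 (SE 0.18, adjusted Wald p = 0.87) in the authors' deposited table. The 95% interval of Tars, from -0.31 to 0.41, does not overlap that of Tarsl2, from -0.96 to -0.53. Per kilobase of the longest annotated transcript, base means of 250.1 for Tarsl2 and 214 for Tars were of similar size.

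The cytosolic phenylalanyl enzyme is built from the products of Farsa, the catalytic alpha subunit, and Farsb, the beta subunit, and their transcripts did not move alike. Farsb (chr1:78417958-78488897) went from an implied 1181 to 728 normalized counts, with -0.70 (SE 0.09, adjusted Wald p = 7.4e-13) in the authors' deposited table. Farsa stood at 552 and 521 normalized counts, with -0.085 (SE 0.11, adjusted Wald p = 0.61) in the authors' deposited table. Their 95% intervals, from -0.88 to -0.52 for Farsb and from -0.29 to 0.12 for Farsa, do not overlap.

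Dars, the aspartyl enzyme, and Iars, the isoleucyl enzyme, were the other cytosolic genes called lower. Dars had -0.33 (SE 0.07, adjusted Wald p = 2.8e-05) and Iars -0.27 (SE 0.09, adjusted Wald p = 0.0080) in the authors' deposited table. Kars, whose gene makes the lysyl enzyme of both compartments, was close to them at -0.34 (SE 0.07, adjusted Wald p = 4.6e-05) in the authors' deposited table. Gars, the glycyl enzyme of both compartments, had -0.16 (SE 0.07, adjusted Wald p = 0.072) in the authors' deposited table. Both dual genes thus had values between the medians of the cytosolic and mitochondrial sets.

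The 12 cytosolic genes not yet described were not called. In the authors' deposited table, positive values without a call were 0.21 for Rars (SE 0.09, adjusted Wald p = 0.068), 0.21 for Cars (SE 0.13) and 0.19 for Nars (SE 0.08, adjusted Wald p = 0.057), the enzymes for arginine, cysteine and asparagine. Values of 0.10 for Sars, 0.056 for Wars, 0.052 for Aars, 0.050 for Mars and 0.016 for Eprs were also listed in the authors' deposited table, for serine, tryptophan, alanine, methionine and the joined glutamyl and prolyl enzyme. Below 0, the authors' deposited table had -0.0094 for Lars, -0.059 for Vars, -0.087 for Hars and -0.10 for Yars, which charge leucine, valine, histidine and tyrosine. Over all 14 cytosolic genes without a call, Tars had the widest 95% interval, and Wars had the narrowest, from -0.088 to 0.20. Aars shares 15.1% of its exon bases with other genes, mostly Exosc6, and Mars overlaps Ddit3 on the opposite strand over 1.99% of its exon bases.

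Placing each cytosolic gene beside its mitochondrial counterpart gave 18 pairs, in which Eprs, Fars2 and Tars2 each occur in more than 1. The mitochondrial gene had the lower log2 fold change in 16 pairs and the higher one in 2, those of Farsb with Fars2 and of Tarsl2 with Tars2. The median of the mitochondrial minus the cytosolic value was -0.45. In 12 pairs the mitochondrial gene was lower and the cytosolic one was not called, in 3 both were lower, and in 3 neither was called. The 95% intervals did not overlap in 9 pairs, all with the mitochondrial gene lower, and overlapped in 9. Among the 9 pairs without overlap, arginine showed the widest gap, -0.90 between Rars2 and Rars, followed by serine at -0.71, threonine (Tars) at -0.70, methionine at -0.64, alanine and asparagine at -0.61, tyrosine at -0.59, valine at -0.57 and glutamate at -0.44. Where the intervals overlapped, the widest gap was that of proline (Pars2 and Eprs), -0.46, and for cysteine the gap was -0.039. A standard error of such a difference needs values per library and was not computed, so the gaps carry no test.

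**Figure D2:**
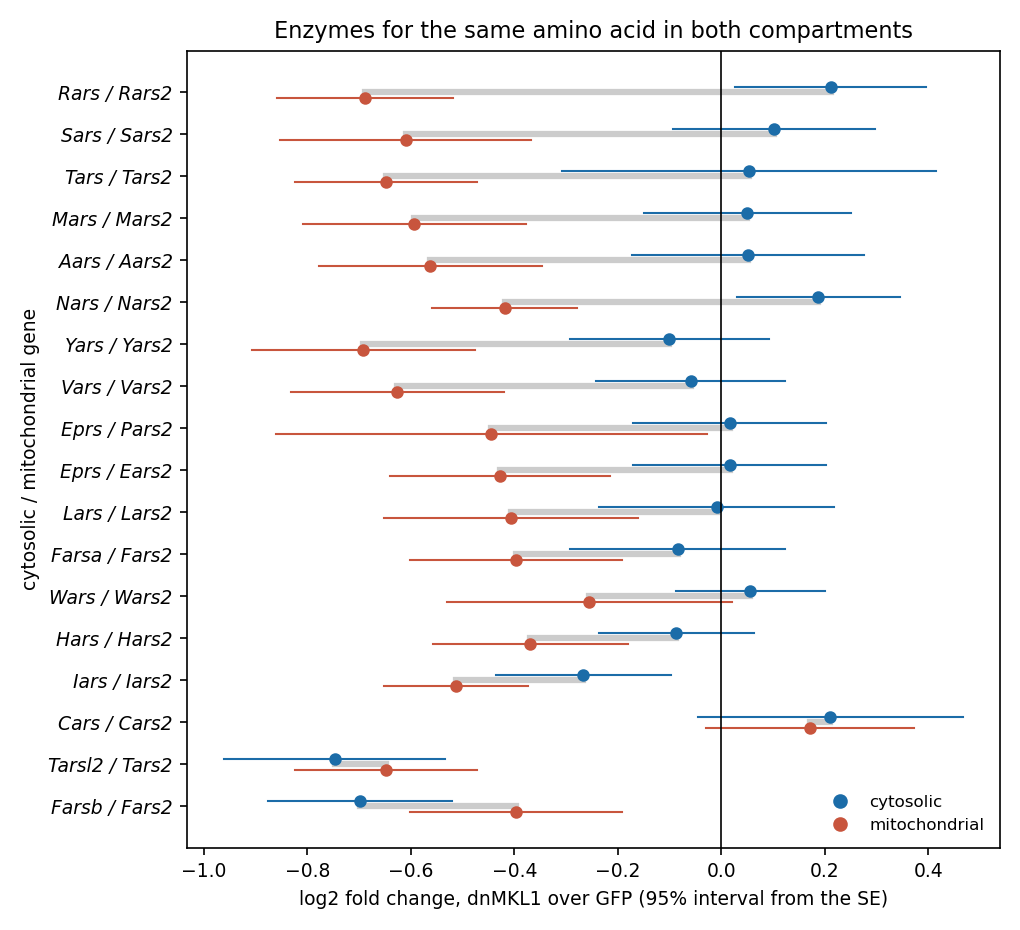
Log2 fold change (x axis, dnMKL1 over GFP) of the cytosolic gene and of the mitochondrial gene for the same amino acid in 18 pairs (y axis), with 95% intervals from the deposited standard errors and a grey bar joining each pair. The mitochondrial point lies to the left in 16 pairs, and the pair for cysteine and those with Tarsl2 and Farsb stand apart at the bottom.

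The split between compartments was seen in both structural classes of synthetase. Class I enzymes bind ATP in a Rossmann fold and class II enzymes in a fold built on an antiparallel sheet. In class I, 7 of 9 mitochondrial genes were lower, with a median log2 fold change of -0.51, and 1 of 9 cytosolic genes was lower and 1 higher, with a median of 0.050. In class II, 6 of 7 mitochondrial genes were lower (median -0.44) and 3 of 9 cytosolic genes were lower (median -0.085). The cytosolic counts make 11.1% (class I) and 33.3% (class II) lower, beside 17.4% of all genes tested, and rest on few genes. Eprs, which holds an enzyme of each class, was left out of these counts.

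The enzymes inside and outside the multisynthetase complex had medians close to 0. Of its 8 enzymes (Dars, Eprs, Iars, Kars, Lars, Mars, Qars and Rars), 3 were lower, 1 higher and 4 not called, with a median log2 fold change of 0.0034. The 12 cytosolic genes outside it had 2 lower, 10 not called and a median of -0.0039. These counts make 37.5% lower inside the complex and 16.7% outside it, beside 17.4% of all genes tested, and rest on few genes. Of its 3 scaffold genes, Aimp2 was lower at -0.26 (SE 0.10, adjusted Wald p = 0.034) in the authors' deposited table. Aimp1 and Eef1e1 had -0.18 (SE 0.08) and -0.021 (SE 0.13) in the authors' deposited table and were not called.

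The median base mean per kilobase of the longest annotated transcript was 330.2 normalized counts for cytosolic and 168 for mitochondrial members, and 705 and 486 for Gars and Kars. Mars2 has an annotated transcript of 11294 bases in GENCODE, much longer than its RefSeq gene, so its value of 31.2 per kilobase may be too low. Lars2 (chr9:123366927-123462675) stood apart from every other member: per kilobase it had 12077 normalized counts, against at most 705 for the rest. Its base mean was 47028 normalized counts, and those of the other members ran from 92.2 (Pars2) to 2432 (Eprs). The source of its reads cannot be read from this table, and the mitochondrial count without Lars2 was 12 of 15 lower, with a median of -0.51.

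**Figure D3:**
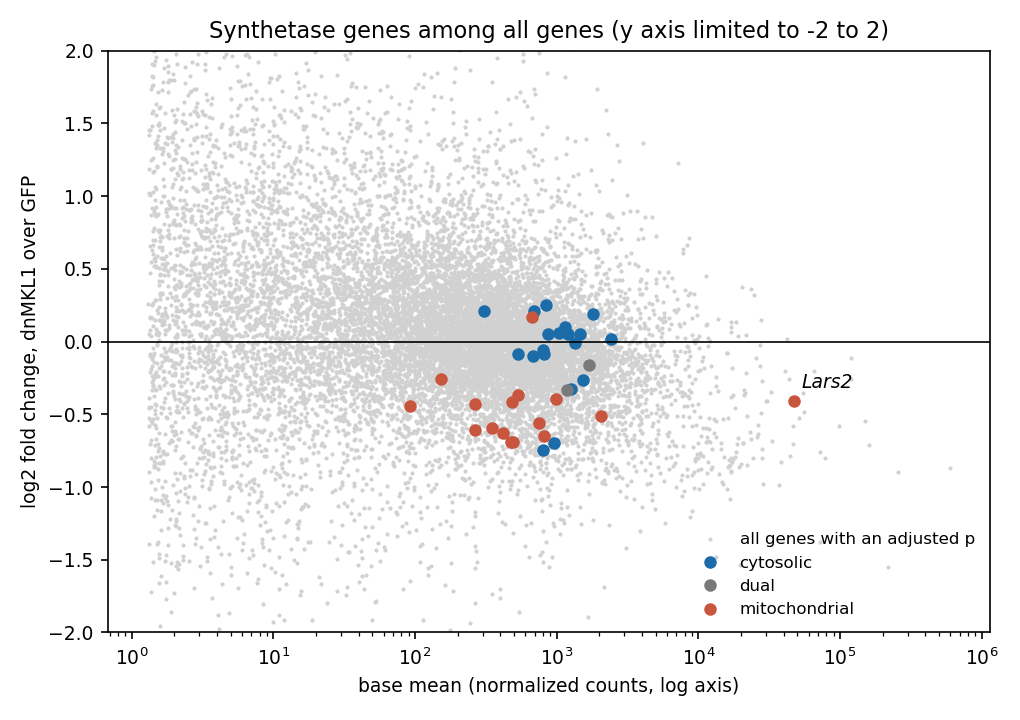
Log2 fold change (y axis, limited to -2 to 2) against base mean in normalized counts (x axis, log scale) for all genes with an adjusted p-value (grey, with Mkl1 and other genes beyond the axis limits not drawn) and for cytosolic, dual and mitochondrial synthetase genes (coloured). At base means between about 100 and 1000 normalized counts, the mitochondrial genes lie below most cytosolic ones, except Cars2 at 0.17, and Lars2 lies far to the right at 47028.

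The scaling of the libraries bears on every value here. Scaling both groups to the same total of implied means adds 0.29 to each log2 fold change. The median of the mitochondrial members then became -0.19, with 8 lower and 1 (Cars2) higher, and that of the cytosolic members 0.30, with 12 higher and 2 (Farsb and Tarsl2) lower. Under that scaling 40.4% of all genes tested were higher and 6.60% lower. The gap within each pair does not depend on the scaling, as both genes shift alike. Cardiomyocyte markers moved with the mitochondrial genes: 5 of 7 tested were lower and 0 higher, and the summed implied means of the 8 went from 1405868 to 771317 normalized counts. The eighth, Nppa, which encodes atrial natriuretic peptide, went the other way, at 1.93 (SE 0.60) in the authors' deposited table. Its implied means were 1935 and 7359 normalized counts. Nppa was listed with a Wald statistic of 3.23 but without a p-value. DESeq2 leaves out the p-value of such a gene when a library holds an extreme count, so these values may rest on 1 library. Fibroblast markers had 3 of 7 higher and 0 lower, with summed implied means of 3195 in GFP and 4424 in dnMKL1 libraries. Endothelial markers had 0 of 6 called, by the same deposited test, and 0 of 6 at an unadjusted p-value under 0.05. Macrophage markers had 1 of 5 higher and 0 lower, and mural markers 2 of 6 higher and 1 lower. The part of these cell types in the result was not tested. In bulk samples, fewer cells of a type, less RNA per cell and a change in the marker genes themselves under dnMKL1 cannot be told apart.

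Genes that act after charging were described with the same test. The shares of all genes tested, 17.4% lower and 16.6% higher, stand beside the counts of each list below. All 5 genes in the list of mitochondrial elongation factors and factors related to them were lower. In the authors' deposited table these were Tufm, which delivers charged tRNA to the mitochondrial ribosome, at -0.95 (SE 0.12), its exchange factor Tsfm at -0.72 (SE 0.11), the translocase Gfm1 at -0.65 (SE 0.08), Gfm2 at -0.54 (SE 0.10) and Guf1 at -0.56 (SE 0.11). Of the 6 cytosolic elongation genes, 2 were higher, 2 lower and 2 not called. Eef1a1, which delivers charged tRNA in the cytosol, had 0.43 (SE 0.10, adjusted Wald p = 8.1e-05) and its exchange-factor subunit Eef1b2 0.24 (SE 0.07, adjusted Wald p = 0.0044) in the authors' deposited table. The other exchange-factor subunits had -0.57 (SE 0.08) for Eef1d and -0.31 (SE 0.09) for Eef1g in the authors' deposited table, both lower. Mtfmt, which adds the formyl group to the mitochondrial initiator tRNA, had -0.26 (SE 0.14, adjusted Wald p = 0.14) in the authors' deposited table and was not called.

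Among 7 genes of tRNA editing and selenocysteine synthesis in the table, 2 were lower and 5 not called. Dtd1, which removes D-amino acids from tRNA, had -0.34 (SE 0.14) and Pstk, a kinase of the selenocysteine pathway that acts on seryl-tRNA, -0.58 (SE 0.14) in the authors' deposited table.

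Genes of the ATF4 and stress response were higher while the cytosolic synthetases were mostly not called. Of 22 genes in that list, 16 were higher, 1 lower and 5 not called, with a median log2 fold change of 1.00. Among all genes tested, 16.6% were higher. Trib3, a pseudokinase induced by ATF4, had 3.69 (SE 0.39) in the authors' deposited table. Mthfd2 and Psat1, enzymes of one-carbon and serine metabolism, had 2.78 (SE 0.28) and 1.74 (SE 0.16), and the secreted stress factor Gdf15 had 3.88 (SE 0.43), in the authors' deposited table. Implied GFP means were low for Trib3 (8.77) and Gdf15 (8.87 normalized counts), so these folds rest on few reads. The same holds for Fgf21 (0.29), Nupr1 (0.98), Phgdh (3.84) and Pycr1 (9.18), which also count among the 16 genes called higher. Atf4 itself had 0.15 (SE 0.12, adjusted Wald p = 0.40) in the authors' deposited table. For the 5 members with ATF4-type letters in their promoter windows, the authors' deposited table gave 0.053 for Tars, 0.052 for Aars, -0.10 for Yars, -0.16 for Gars and -0.27 for Iars. Of these 5, 0 were called higher and Iars was called lower. At an unadjusted p-value under 0.05 there were 2, Gars and Iars, both with negative values.

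Amino acid transporters, which supply the substrates, were mixed. Of 9 tested, 3 were higher, 2 lower and 4 not called. Slc7a5, a carrier of large neutral amino acids, had 2.15 (SE 0.32), Slc1a4 2.24 (SE 0.35) and the glycine transporter Slc6a9 2.65 (SE 0.44), and the cationic carrier Slc7a1 had -0.60 (SE 0.16), all in the authors' deposited table. Implied GFP means were low for Slc1a4 (14.3) and Slc6a9 (4.57 normalized counts), which bears on those folds as for Trib3. Of the 4 kinases that phosphorylate eIF2alpha, Eif2ak3 and Eif2ak2 were higher, at 0.81 (SE 0.17) and 0.62 (SE 0.20) in the authors' deposited table. Eif2ak4, the kinase that senses uncharged tRNA, had 0.14 (SE 0.16, adjusted Wald p = 0.56) in the authors' deposited table.

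**Figure D4:**
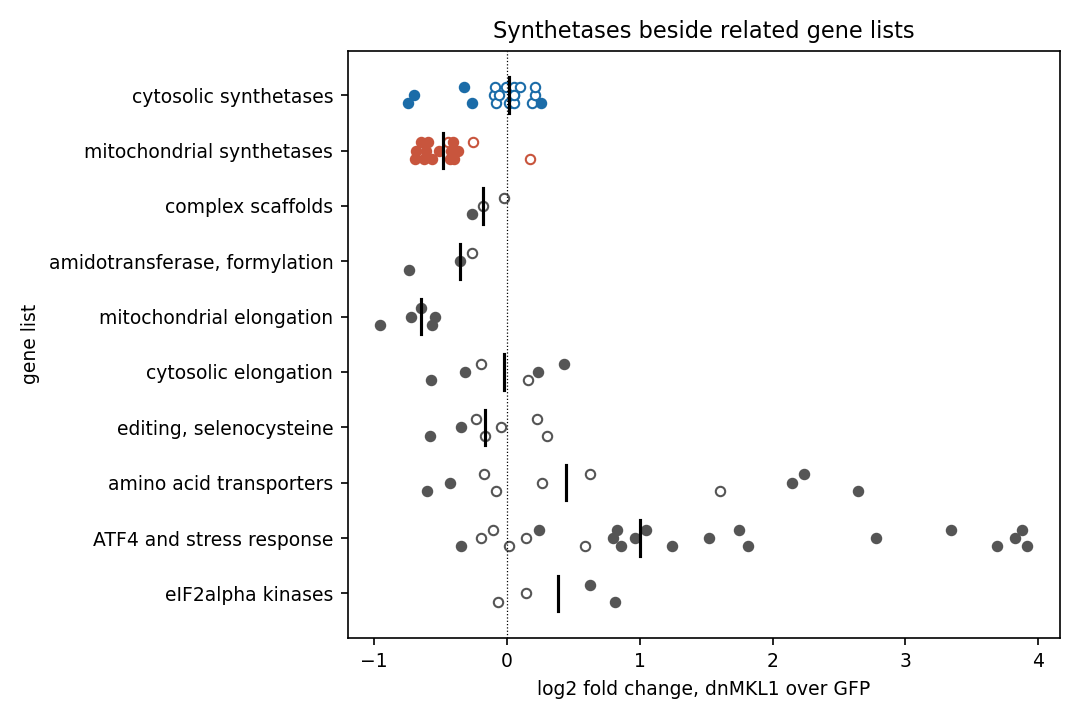
Log2 fold change (x axis, dnMKL1 over GFP) of each gene (points) in the synthetase sets and in lists of related genes (y axis); filled points have an adjusted p-value under 0.05 and black bars are list medians. Mitochondrial synthetases other than Cars2 (set median -0.48) and genes of the mitochondrial elongation list lie left of 0. Most cytosolic synthetases lie at about 0 (median 0.016), and most ATF4 and stress genes to the right (median 1.00).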

How the data were processed

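Per the series' design text, reads were aligned with STAR and counted with featureCounts. The submitters' processing notes name STAR 2.5.3a, Subread 1.5.2, CASAVA 1.8 and mm10; annotation and strand setting are not given in the sources used here. Per the file headers, the authors' deposited table is output of DESeq2, with no values per library: base mean (a signal in normalized counts), log2 fold change and its SE, Wald statistic (a score) and the p-value with its Benjamini-Hochberg adjustment across all genes. Recomputing the adjustment left a largest gap of 1.4e-07. The planned edgeR test, which needs counts per library, was not used.

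Implied group means take the base mean as the average of 2 equal groups. Intervals at 95% are the log2 fold change plus and minus the normal quantile times the SE. They rest on the authors' estimate of the spread between libraries, and each Wald p-value weighs a fold change against its SE. Whether that is spread between single animals or between pools is not known. Code ran in Python 3.11.15 with pandas 2.3.3 and scipy 1.17.1. The code for the rescaled calls was run on simulated fold changes with the deposited SEs, which does not test the authors' calls. Members, lists and tests were chosen with earlier results of these data known. All members are accounted for; fullest values are given for the called members with the 8 largest changes, those against their compartment's direction and their pairs, and for the related lists up to 4 genes with the smallest adjusted p, with others named for their role after their values were seen. RefSeq gave promoter windows (the first listed per gene), GENCODE M21 lengths and overlaps. The ATF4-type motif was planned, the other 7 were added after seeing the data. Protein features were planned and not analysed here.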

Additional observations from a re-analysis of the deposited data

How the results depend on the processing

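No paired analysis was possible because the comparison table holds no value of any numbered library; for the same reason the fits that leave out 1 library and the count tests were not run, and whether 1 library decides a value is unknown. Of the 37 members, 37 kept their direction and call with adjustment over every p-value, over genes with base means from 10 up, and with median-centring. At a base mean of at least 100, Pars2 drops out and Nars becomes called (adjusted p = 0.045). At an adjusted p-value under 0.01 the call of Qars was lost, and under 0.1 there were 4 more calls (Nars, Rars, Gars and Pars2), which made both dual genes (2) lower.

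Asking also for an absolute log2 fold change of 0.5 or more left 10 members called in place of 19, of which 2 were cytosolic, 8 mitochondrial and 0 dual, since fewer genes can pass it. Scaling to the same total called 14 cytosolic and 0 dual genes and moved the medians to 0.30 (cytosolic) and -0.19 (mitochondrial), by the shift it adds. It reversed the sign of 8 genes: Farsa (0.20), Hars (0.20), Iars (0.022), Lars (0.28), Vars (0.23), Yars (0.19), Gars (0.13) and Wars2 (0.033). Moving Tarsl2, Gars or Kars between compartments, or leaving out Lars2, kept the counts within 1.5 times; leaving out Lars2 was chosen after seeing the data.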
